A study of Oryza sativa with 4 samples.

Results

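Laccases were examined in coleoptiles of rice (Oryza sativa) variety PB1 (Pusa Basmati 1) as the coleoptile, the sheath around the first leaf, began to senesce. The members were 10 loci of the MSU rice annotation given as rice laccases, and each was looked up by its locus ID in the transcripts that the authors deposited for both groups. Of the 10 loci, 3 had a transcript among the 3439 transcripts listed, which carry 3141 distinct locus IDs, and 7 were not listed. Each of the 3 listed loci had 1 transcript.

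There were 2 day 2 libraries, from wild type seedlings at 9 days after germination, and 2 control libraries, from wild type seedlings at 7 days. Per the study's methods, seeds of both groups had been kept under water for 7 days. Control coleoptiles were harvested at once on transfer to air, and day 2 coleoptiles after 2 days in air, although the labels give submergence as the treatment of both groups. Age, air and senescence therefore cannot be told apart. The values are FPKM, fragment numbers scaled to transcript length and to library size, with 1 value per transcript and group, so no spread between libraries, no test and no p-value can be given. The study had shortlisted the transcripts for a difference of at least 4-fold, a log2 ratio of day 2 over control of 2 or more in size, and also by a p-value of its own, so a member without a transcript is described as not listed and nothing is said of its level. Markers of the coleoptile could not be checked in such a list.

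Laccases are secreted enzymes that carry several copper ions and use oxygen to oxidise phenolic compounds. In the cell wall they act on monolignols, the building units of lignin, which then couple to one another. Class III peroxidases act on the same units with hydrogen peroxide, and dirigent proteins guide how such radicals couple. In several plants laccase transcripts are cut under the direction of miR397, a miRNA that plants are known to make when copper is scarce.

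All 3 listed laccases were higher at day 2, and none was lower or at 0 in control. A transcript was counted where neither group was at 0 and the higher of its values reached FPKM 1. Of the 3141 such transcripts 62.2% were higher at day 2 and 37.8% lower, so a count of 3 in the more common direction says little about laccases in particular. The study describes each of the 3 as a laccase precursor protein, and all lie on chromosome 1, the chromosome of 6 of the 10 members. Positions below are on IRGSP-1.0, as deposited.

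LOC_Os01g61160 (chromosome 1, 35402794 to 35405298) had FPKM 30.4 at day 2, against 0.387 in control. It was 78.6-fold higher, a log2 ratio of 6.30. Ordered by log2 ratio it was number 121 of the 1954 higher transcripts, 93.8% of which had a smaller ratio. Its control value was low even among these transcripts, since 23.8% of them had a lower control FPKM.

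LOC_Os01g62490 (chromosome 1, 36177291 to 36180127) had FPKM 12.2 at day 2, against 1.08 in control. It was 11.3-fold higher, a log2 ratio of 3.50. Both of its values lay near the middle of the higher transcripts, whose median FPKM was 11.4 at day 2 and 1.04 in control and whose median log2 ratio was 3.14.

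LOC_Os01g62480 (chromosome 1, 36165928 to 36168939) had FPKM 4.39 at day 2, against 0.454 in control. It was 9.68-fold higher, a log2 ratio of 3.28. With a pseudocount of 1 the ratio was 1.89, under 4-fold, and the locus is not counted where both groups must reach FPKM 1 or where either must reach FPKM 5. Its day 2 value was in the lower part of the higher transcripts, 22.9% of which had a lower FPKM at day 2, while its log2 ratio was again near their middle. With 2 of the 3 laccases under FPKM 1 in control and no fragment numbers in the files, the counting error of these folds is unknown.

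**Figure D1:**
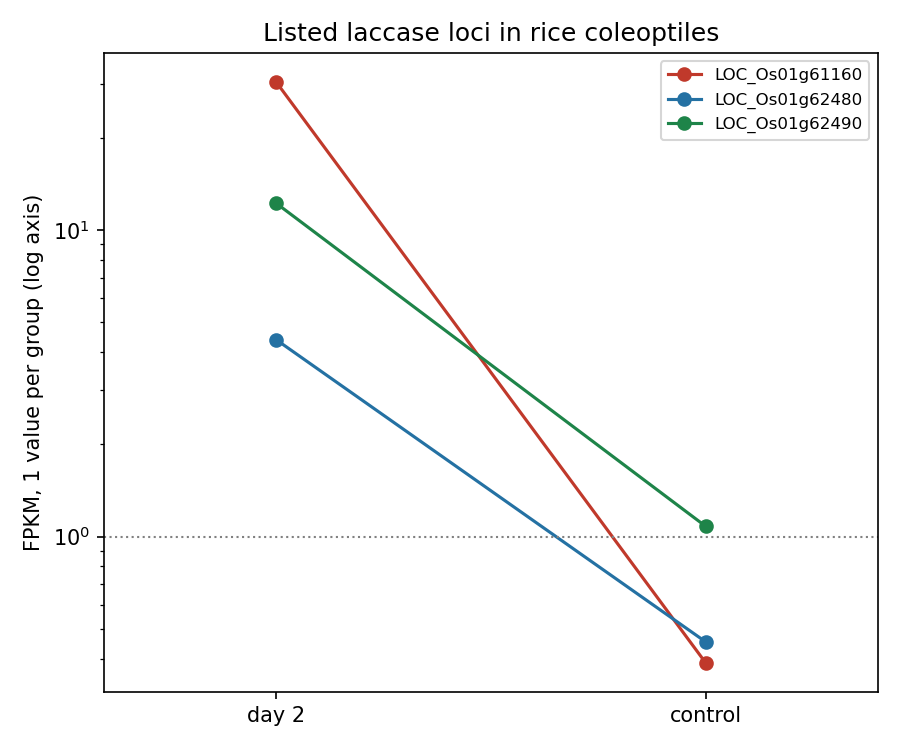
FPKM (log axis) of the 3 listed laccase loci at day 2 and in control, 1 point per locus and group, each the authors' value over both libraries. All 3 lines run down from day 2 to control, and LOC_Os01g61160 is highest at day 2 (30.4) and lowest in control (0.387). The dotted line marks FPKM 1.

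The order of the laccases differed between the groups. At day 2 LOC_Os01g61160 was highest, 2.49 times LOC_Os01g62490 and 6.93 times LOC_Os01g62480. In control LOC_Os01g62490 was highest, 2.79 times LOC_Os01g61160, which was below LOC_Os01g62480 as well. The log2 ratio of LOC_Os01g61160 exceeded that of LOC_Os01g62490 by 2.79, whereas the adjacent loci LOC_Os01g62490 and LOC_Os01g62480 differed by only 0.23. Without a value per library it cannot be said which of these differences exceed the replicate error.

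Summed over the 3 loci, laccase FPKM was 47.1 at day 2 and 1.92 in control, 24.5-fold higher at day 2. LOC_Os01g61160 made up 64.7% of the sum at day 2 and 20.2% in control, LOC_Os01g62490 made up 26.0% and 56.2%, and LOC_Os01g62480 made up 9.33% and 23.6%. Without LOC_Os01g61160 the sums were 16.6 at day 2 and 1.53 in control, 10.8-fold higher. In whole coleoptiles, a change in how many cells use a gene and a change in the RNA per cell cannot be told apart.

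**Figure D2:**
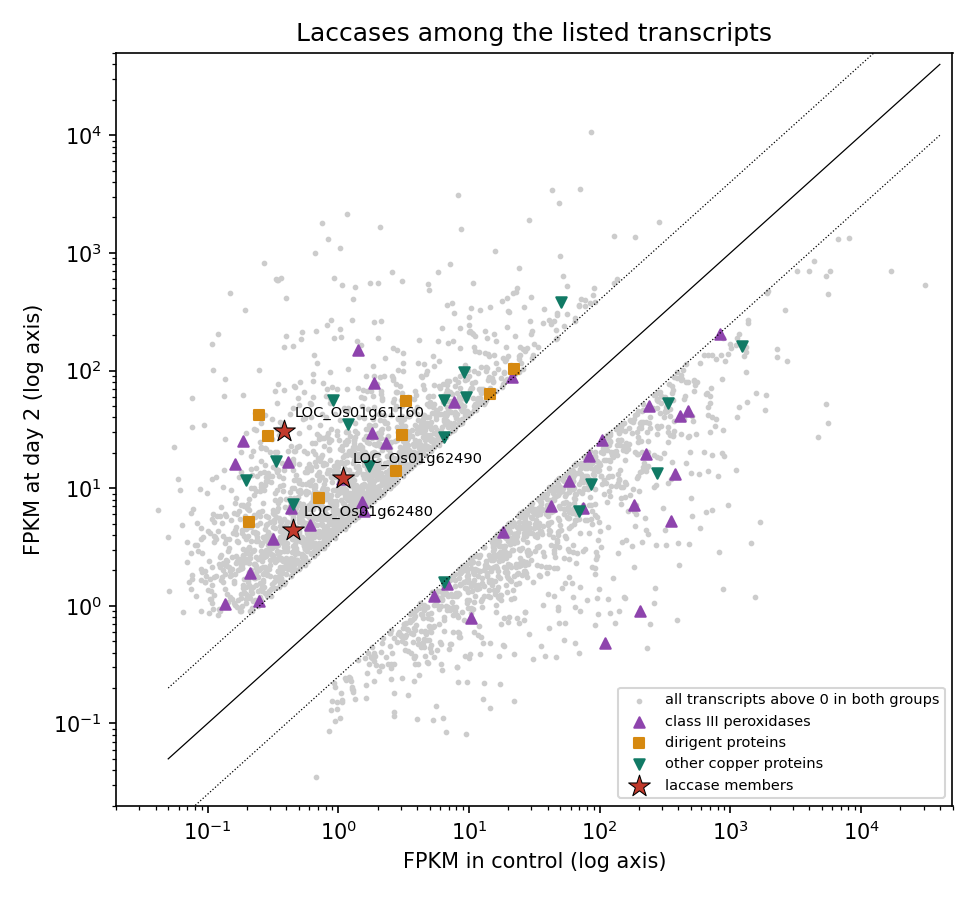
FPKM at day 2 against FPKM in control (log axes) for all listed transcripts above 0 in both groups (grey), with the laccases (stars) and the summed FPKM of listed loci of 3 related kinds. The solid line marks equal values and the dotted lines 4-fold, between which the study listed nothing. The 3 laccases lie above the upper line at control FPKM between 0.387 and 1.08, while peroxidases fall on both sides.

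The 7 members not listed were LOC_Os01g62600, LOC_Os01g63180 and LOC_Os01g63190 on chromosome 1, LOC_Os03g16610 on chromosome 3, LOC_Os05g38410 and LOC_Os05g38420 on chromosome 5, and LOC_Os11g48060 on chromosome 11. Such a locus may have been undetected or too low in both groups, as the study states that it considered transcripts of FPKM 1 or more. That limit does not hold for every listed transcript, since LOC_Os08g21330 was listed with FPKM 0.156 at day 2 and 0.891 in control. A member not listed may also have changed by less than 4-fold, or by more without passing the study's p-value. Detection in control alone, a class that the study set apart, is another case. These cases were not separated here. The family is also larger than the member list, since 12 genes of the RefSeq gene table (assembly ASM3414082v1) carry a LAC name. One further listed locus, LOC_Os10g20610 (chromosome 10, 10390879 to 10396620), is described by the study as a laccase-15 precursor, and its gene ID has the synonym LAC15 in RefSeq. It had FPKM 1.20 at day 2 and was listed at 0 in control, so no fold is given.

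LOC_Os01g62480 and LOC_Os01g62490 are neighbours, with 8351 bases between them and consecutive locus numbers. In RefSeq the gene ID that the study pairs with LOC_Os01g62490 likewise has a gene named LAC4 on one side and FTSH3 on the other. The next listed transcript after the pair, LOC_Os01g62500, described as the FtsH3 protease, had FPKM 1.96 at day 2 against 0.348 in control, a log2 ratio of 2.49. The nearest listed transcript before the pair, LOC_Os01g62380, a fasciclin-like protein, was lower, with FPKM 10.1 at day 2 against 58.4 in control. Reads may be split between genes that resemble each other, and whether this touched the adjacent laccases was not tested.

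LOC_Os01g61160 lies 774.5 kb before the start of LOC_Os01g62490. Outside 100 kb of its start, 2 transcripts of LOC_Os01g61410 were higher at day 2, with log2 ratios of 4.06 and 3.45. All 5 other transcripts listed within 100 kb of the start of LOC_Os01g61160 were lower at day 2. Among them were its nearest listed neighbours, the ulp1 protease locus LOC_Os01g61110 with FPKM 2.93 at day 2 against 32.0 in control, and the GDSL-like lipase locus LOC_Os01g61200 with FPKM 2.81 at day 2 against 66.8 in control. Around LOC_Os01g62490, with the adjacent laccase left out, 3 of 5 other transcripts within 100 kb were higher and 2 were lower.

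**Figure D3:**
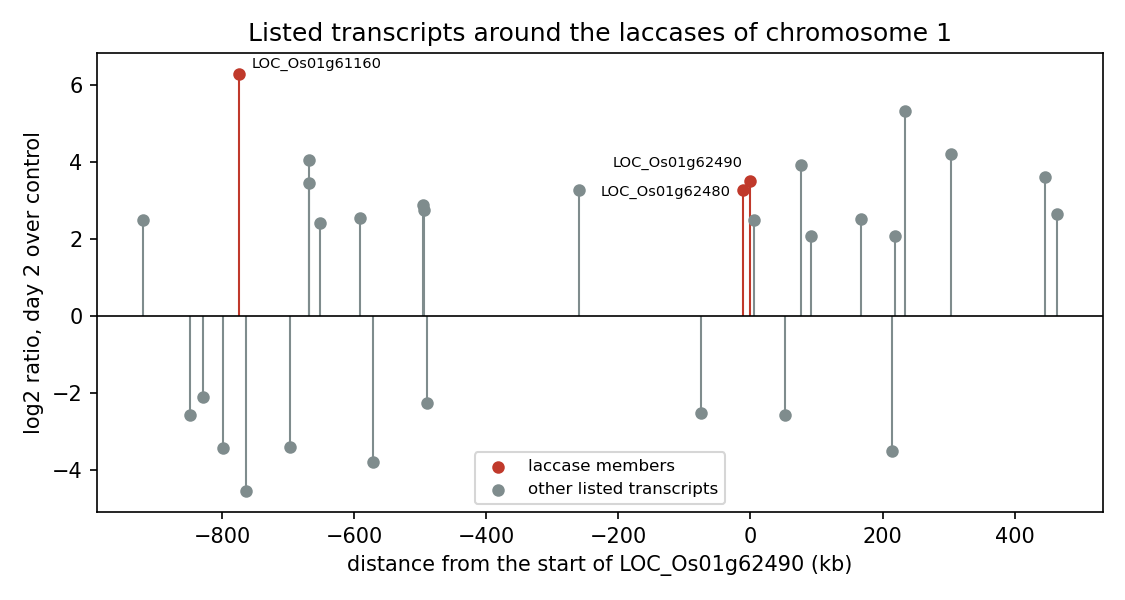
Log2 ratio of day 2 over control for the listed transcripts of chromosome 1 around the laccases, against distance from the start of LOC_Os01g62490 in kb. Each stem is 1 transcript above 0 in both groups, red for laccases. LOC_Os01g61160, at 6.30, stands between lower transcripts, and LOC_Os01g62480 and LOC_Os01g62490, at 3.28 and 3.50, stand next to each other.

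The study predicted miRNAs that pair with these transcripts, and their sequences are shown because they are the stated link between laccases and the miRNA data. osa-miR397a was predicted to pair with all 3 listed laccases, and osa-miR164a and osa-miR164d with LOC_Os01g62490 only. Bases 2 to 8 are in capitals.
osa-miR397a, as identified in the small RNA libraries: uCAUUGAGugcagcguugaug
osa-miR397a, as listed beside the 3 laccases: aUUGAGUGcagcguugaugaa
osa-miR164a: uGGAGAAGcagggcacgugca
osa-miR164d: uGGAGAAGcagggcacgugc

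The 2 sequences given for osa-miR397a share a run of 19 bases and are shifted by 2 bases, so bases 2 to 8 differ between them. The shifted sequence stands beside all 3 laccases and 5 of the 6 other loci in the study's list of 9 pairs of osa-miR397a that it called inverse. The osa-miR164 pair differs by 1 base at the 3′ end. Target sites could not be shown, since no transcript sequence was used here.

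Of those 9 loci, 8 were higher at day 2 and 1 was lower. A separate table of predicted osa-miR397a targets also has 9 loci, of which 6 were higher and 3 were lower. Over both tables, which hold 12 loci, the 9 that are not laccases were split into 6 higher and 3 lower. In the list of inverse pairs the lower one, LOC_Os02g45760, described as a chitin-inducible gibberellin-responsive protein, had FPKM 4.59 at day 2 against 19.1 in control. The 5 other loci that were higher had log2 ratios of 2.19 to 3.44, and among the laccases only LOC_Os01g62480 was within that range. The study describes the pairs of that list as moving in opposite directions in its own samples, so the directions within it are not independent evidence. With 8 loci higher and 1 lower for the same miRNA, not every pair can be opposite by the values used here. Of the laccases, the table of predicted targets holds LOC_Os01g62480 and LOC_Os01g62490, and LOC_Os01g61160 is in the list of inverse pairs alone. The miRNA levels were not analysed here.

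The study also drew predicted protein partners for LOC_Os01g62490. LOC_Os06g11490, a plastocyanin-like copper protein, had FPKM 56.0 at day 2 against 6.46 in control. LOC_Os05g48270, described as an auxin-responsive protein, had FPKM 37.3 at day 2 against 6.48 in control. LOC_Os04g38720, a NAC transcription factor that shares the predicted osa-miR164 pairing, had FPKM 4.12 at day 2 against 19.5 in control.

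Genes of the same pathway were collected by keyword from the descriptions in the study's supplementary tables, which cover 2598 of the 3141 listed loci. The counts below are therefore of listed and described loci, per locus with FPKM summed over its transcripts. Among all 3115 loci that reached FPKM 1 at day 2 or in control, 65.7% were higher at day 2 or at 0 in control, and 34.3% were lower. The tables hold 273 transcripts at 0 in control and 0 at 0 at day 2, so loci seen in 1 group alone add to the higher side only.

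For monolignol synthesis the keywords found only 2 loci, both higher. Loci of this pathway that are described in other words would be missed, so the direction of the whole pathway is not given. LOC_Os08g34280, a cinnamoyl-CoA reductase, which makes the aldehydes that become monolignols, had FPKM 57.9 at day 2 against 0.858 in control, a log2 ratio of 6.08 that is close to that of LOC_Os01g61160. LOC_Os08g38920, a caffeoyl-CoA O-methyltransferase, which adds a methyl group to their precursor, had FPKM 5.43 at day 2 against 1.29 in control, a log2 ratio of 2.07.

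All 11 dirigent protein loci were higher at day 2, 2 of them listed at 0 in control, against 65.7% higher or at 0 in control over all loci. The highest were LOC_Os07g01660 with FPKM 102.2 at day 2 against 22.0 in control, LOC_Os11g07670 with 62.9 against 14.4 and LOC_Os11g42550 with 55.5 against 3.31. Their summed FPKM was 356.5 at day 2 and 46.9 in control, and the median log2 ratio of the 9 above 0 in both groups was 3.55, next to 3.50 for the laccases. The median over all higher transcripts was 3.14. Where both groups had to reach FPKM 1, only 5 dirigent loci were left, all higher, against 52.3% over all loci.

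The peroxidases, which share the monolignols with laccases, went both ways. Of 42 loci, 23 were higher or at 0 in control and 19 were lower, so 54.8% were higher. Where both groups had to reach FPKM 1, 36.0% of 25 loci were higher, and with a pseudocount of 1 it was 44.8% of 29, so the more common direction depends on loci low in control. Over all loci the share was also smaller in these settings, 52.3% and 59.6%. The summed FPKM was 1065 at day 2 against 3850 in control. Among the higher loci, LOC_Os01g15830 had FPKM 150.4 at day 2 against 1.41 in control, LOC_Os07g47990 87.6 against 21.2 and LOC_Os06g46799 78.6 against 1.89. Among the lower loci, LOC_Os01g19020 had 203.3 at day 2 against 839.2 in control, LOC_Os01g16450 45.4 against 469.7 and LOC_Os03g02920 41.0 against 411.2. The laccase sum of 47.1 at day 2 is small beside either peroxidase sum, but it covers only 3 listed loci against 42.

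Other copper proteins also went both ways, with 12 of 18 loci higher or at 0 in control (66.7%) and 6 lower. LOC_Os07g46990, a copper/zinc superoxide dismutase that removes superoxide, had FPKM 383.5 at day 2 against 50.5 in control. Both copper-transporting ATPases, pumps that move copper across membranes, were higher. LOC_Os02g10290 had FPKM 15.3 at day 2 against 1.72 in control and LOC_Os04g46940 had 7.37 against 0.447. Plastocyanin-like proteins, small secreted copper proteins, were split, with 6 of 9 loci higher or at 0 in control. LOC_Os09g39940 had FPKM 96.7 at day 2 against 9.20 in control and LOC_Os03g50160 had 59.2 against 9.54, whereas LOC_Os08g37660 had 161.7 at day 2 against 1228 in control, LOC_Os03g55120 53.4 against 335.1 and LOC_Os03g02400 13.5 against 272.7.

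The 2 loci described as multicopper oxidase domain proteins differed in direction. LOC_Os01g03620 had FPKM 11.7 at day 2 against 0.196 in control, a log2 ratio of 5.90, and LOC_Os01g03530 had FPKM 1.60 at day 2 against 6.48 in control, a log2 ratio of -2.02. The ascorbate oxidase loci, which belong to the same superfamily as laccases, were split as well. LOC_Os06g37150 had FPKM 34.8 at day 2 against 1.20 in control. LOC_Os07g02810, described as an ascorbate oxidase homolog, had 10.9 at day 2 against 85.8 in control. LOC_Os07g32660, described as a monocopper oxidase, was lower too, with FPKM 6.42 at day 2 against 69.3 in control. The loci of this paragraph, the copper pumps and, below, CESA4 and the COBRA locus were singled out after their values were seen.

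For the secondary wall, the thick layer that lignin hardens, all 3 cellulose synthases of that layer were higher. CESA7 (LOC_Os10g32980) had FPKM 29.4 at day 2 against 4.03 in control, CESA9 (LOC_Os09g25490) had 21.0 against 1.27 and CESA4 (LOC_Os01g54620) had 17.3 against 1.31. Their log2 ratios of 2.87, 4.05 and 3.72 bracket those of LOC_Os01g62480 and LOC_Os01g62490. All of these ratios lie between 2.47 and 4.13, the lower and upper quartiles of all higher transcripts, so the likeness says little. Fasciclin proteins, which are cell surface proteins of many tissues, were mostly lower, with 7 of 10 loci lower, among them LOC_Os05g48890 with FPKM 40.4 at day 2 against 1117 in control, LOC_Os01g47780 with 79.6 against 471.0 and LOC_Os03g03600 with 39.9 against 308.7. One of the higher loci was LOC_Os09g30486 with FPKM 29.3 at day 2 against 1.38 in control. The COBRA locus LOC_Os07g41310 was lower as well, with FPKM 9.55 at day 2 against 117.1 in control. Over the whole list 5 loci were higher, 8 were lower and 1 was under FPKM 1 in both groups. Of the 13 that reached FPKM 1, 38.5% were higher, against 65.7% over all loci. Fasciclin loci made up 10 of the 14 loci on this list, so this share mostly describes them.

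**Figure D4:**
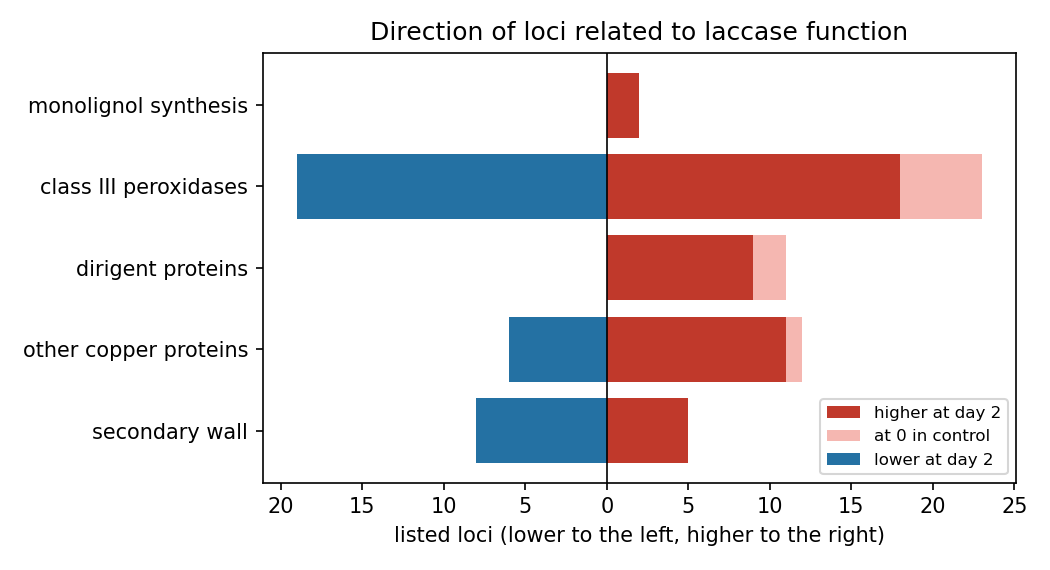
Number of listed loci of each related kind that were higher at day 2, at 0 in control (both to the right of 0) or lower at day 2 (to the left), among loci that reached FPKM 1. All 11 dirigent loci lie to the right, and the 42 peroxidase loci split into 23 and 19.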

How the data were processed

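RNA of 2 day 2 and 2 control libraries was sequenced. According to the methods of the study, the authors cleaned the read pairs with NGS QC Toolkit, mapped them with TopHat to Nipponbare IRGSP-1.0, assembled transcripts with Cufflinks and Cuffmerge, and compared the groups with Cuffdiff. The deposited values are FPKM computed by the authors, 1 per transcript and group, for transcripts shortlisted for change. The tables hold no fragment number per transcript or library, and reads per library stated by the study are not mapped fragments, so no interval was computed.

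Both tables were joined on the transcript ID. Trailing spaces, present in the locus IDs of 63 transcripts, were removed first. The log2 ratio of day 2 over control was taken with no pseudocount, transcripts at 0 in control were set apart, and a locus was called where either group reached FPKM 1 and the groups differed by 4-fold or more. Gene lists came from keywords fitted to the spelling of the study's descriptions, with multicopper oxidase added later. NAC regulators planned for the secondary wall list (SND, NST, VND) were not among the keywords searched. Named loci were all members and up to 3 of the highest FPKM per direction and list, plus neighbours, predicted partners, miRNA pairs and loci stated as singled out. The members and lists were chosen with earlier results of these data known. The planned limma test was not run, as there is 1 value per group. The calling rule was tested on simulated data. Python 3.11.15 with pandas 2.3.3 and numpy 2.4.6 was used.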

Additional observations from a re-analysis of the deposited data

How the results depend on the processing

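No paired analysis was possible because the tables merge the libraries of a group into 1 value, which also means that no library could be left out. No laccase was lower in any setting tried, and the count of higher laccases was 3 except in the settings named next. Where both groups had to reach FPKM 1, the count was 1, LOC_Os01g62490, and it was also 1 when IDs were compared as written, since 2 of the 3 IDs end in spaces. It was 2 where a group had to reach FPKM 5, and 2 with a pseudocount of 1. The median log2 ratio, 3.50, was 3.39 and 2.67 with pseudocounts of 0.1 and 1. It was 4.40 and 2.60 with day 2 multiplied and divided by 1.86, the ratio of the summed FPKM of listed transcripts in control to that at day 2. The summed day 2 FPKM was then 87.7 and 25.3, and it was 16.6 without LOC_Os01g61160. With a pseudocount of 1 the log2 ratio of LOC_Os01g61160 was 4.50 and that of LOC_Os01g62480 was 1.89, under 4-fold. Where both groups had to reach FPKM 1, the share of higher loci was 36.0% for peroxidases and 53.8% for other copper proteins, against 52.3% over all loci. Because every listed transcript differs by 4-fold or more, a kept sign is no sign of stability. The ID comparison was chosen after seeing the data, as were 2 other alternatives (LOC_Os10g20610 added, multicopper oxidases left out) that changed no direction.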

Other observations

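Locus numbers of the MSU annotation increase along a chromosome, which allows a check of the IDs. The 3 laccase transcripts were in order. Of the 3121 transcripts compared with their neighbours, 2 carried a number over 1000 away from the median of the 11 listed transcripts around them. One of these lies at 36622828 to 36627662 on chromosome 1 and is labelled LOC_Os01g68120, but it stands between LOC_Os01g62970 and LOC_Os01g63230. The members LOC_Os01g63180 and LOC_Os01g63190, which were not listed, have numbers in that interval. This transcript had FPKM 49.3 at day 2 against 4.03 in control, 12.2-fold higher with a log2 ratio of 3.61. Whether it belongs to a laccase was not determined, and it was not counted as a member.

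A transcript without a locus ID lies at 36230258 to 36231939 on chromosome 1, between LOC_Os01g62500 and LOC_Os01g62610, where the number of the member LOC_Os01g62600 also falls. It had FPKM 2.88 at day 2 against 17.3 in control, a log2 ratio of -2.58. It was not counted as a member either. Both transcripts were singled out after their values were seen.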
